A study of Homo sapiens with 8 samples.

Results

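The transcripts described here are 42 genes of mitosis, the part of the cell cycle in which duplicated chromosomes are condensed, aligned on a spindle and divided between 2 daughter cells. They were taken as probes whose RefSeq accession belongs to a gene on a written list, which runs from the kinases and phosphatases that start mitosis to the motors that complete cell division. All 42 had a probe on the array and all 42 kept a probe after filtering, of 11209 named genes that did. The cells were L1236, an established cell line derived from Hodgkin lymphoma, a B-cell lymphoma with high miR-155. They carried either the empty pMSCV-PIG vector (EV) or the same retroviral vector holding a sponge against miR-155, that is, a transcript whose repeated binding sites compete for the microRNA, and in both cases GFP+ cells had been sorted. Total RNA (T) and the RNA pulled down with an antibody against Argonaute 2 (Ago2-IP, here IP) were measured in each population, which gives 4 groups, EV T, EV IP, sponge T and sponge IP. Each group was 1 RNA sample labelled once with Cy3 and once with Cy5, so no difference here has a replicate check and no p-value is given. The value after ± is the SD over the 2 dyes for T and IP and over the 2 dye orientations for their ratio. It covers labelling and hybridisation, not cultures or precipitations.

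Cells enter mitosis when cyclin B and CDK1 form an active kinase. WEE1 holds CDK1 inactive by phosphorylation and the CDC25 phosphatases release it. PLK1 and the Aurora kinases then drive spindle assembly, the kinetochore ties each chromosome to microtubules, and the spindle checkpoint keeps the anaphase-promoting complex from its activator CDC20 until every chromosome is attached. Most of these transcripts accumulate in late S phase, G2 and M, so that in a bulk sample their level depends both on the share of dividing cells and on the amount of RNA per cell, which cannot be told apart here. Argonaute 2 carries microRNAs to the messenger RNAs that they pair with. A transcript with more signal in IP than in T is one relatively enriched by the precipitation. The samples include no precipitation with a control antibody, so unspecific recovery cannot be told apart here.

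The microRNA that the sponge competes for is given first. By gene set analysis the authors saw no clear depletion of its targets from IP with the sponge in this cell line. They also report that the IP enrichment of most of their selected targets fell mildly in it. They propose that the sponge did not bind all of the abundant microRNA. Whether differences between sponge and EV cells reflect it was not tested here. Its 24-base mature form lies on the plus strand of GRCh38.p14 at chr21:25573983-25574006, with the seed, bases 2 to 8, in capitals.
hsa-miR-155-5p: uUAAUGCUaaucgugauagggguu
Whether members hold a site for this seed was not analysed here, because no transcript sequences were used.

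Mitosis genes are known for shared promoter elements, the CCAAT box, bound by NF-Y, and the cell cycle genes homology region (CHR), bound by the DREAM and MYB-MuvB complexes. RefSeq promoter windows of 300 bases around a transcription start (GRCh38.p14) were at hand for 34 of the 42 members, with 45 windows in all. CCAAT or its reverse complement ATTGG was in 33 of these (73.3%), against 34.6% of all 35116 windows in the table. TTTGAA, the letters of a CHR, or its reverse complement TTCAAA was in 25 (55.6%), against 15.2%. Both were in 20 (44.4%), against 5.9%. A match is a run of letters and not a shown binding site, and windows of one gene can overlap. The 4 windows below, of a cyclin, a kinase, a checkpoint protein and a motor, show how the motifs are placed; both, on either strand, are in capitals. They were chosen after the motifs had been found.
CCNB2 (chr15:59104896-59105195, plus strand): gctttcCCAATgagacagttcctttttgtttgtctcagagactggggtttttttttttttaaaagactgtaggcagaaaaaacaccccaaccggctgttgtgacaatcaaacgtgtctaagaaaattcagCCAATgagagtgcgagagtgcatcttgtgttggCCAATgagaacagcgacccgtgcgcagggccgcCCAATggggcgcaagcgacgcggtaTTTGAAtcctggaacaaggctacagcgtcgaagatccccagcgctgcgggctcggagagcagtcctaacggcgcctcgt
PLK1 (chr16:23678639-23678938, plus strand): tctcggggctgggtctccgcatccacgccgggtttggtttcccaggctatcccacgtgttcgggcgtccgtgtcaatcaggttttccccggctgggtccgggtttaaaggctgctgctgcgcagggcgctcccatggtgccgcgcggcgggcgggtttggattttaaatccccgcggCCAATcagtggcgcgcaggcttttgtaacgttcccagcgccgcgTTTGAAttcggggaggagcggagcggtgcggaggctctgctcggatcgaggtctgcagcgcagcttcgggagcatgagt
CDC20 (chr1:43358731-43359030, plus strand): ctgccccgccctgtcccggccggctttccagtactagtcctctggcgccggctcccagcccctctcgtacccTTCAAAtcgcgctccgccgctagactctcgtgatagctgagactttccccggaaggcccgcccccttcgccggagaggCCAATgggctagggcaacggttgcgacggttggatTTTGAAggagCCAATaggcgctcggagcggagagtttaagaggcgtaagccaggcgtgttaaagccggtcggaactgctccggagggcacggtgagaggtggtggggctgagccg
KIF4A (chrX:70289854-70290153, plus strand): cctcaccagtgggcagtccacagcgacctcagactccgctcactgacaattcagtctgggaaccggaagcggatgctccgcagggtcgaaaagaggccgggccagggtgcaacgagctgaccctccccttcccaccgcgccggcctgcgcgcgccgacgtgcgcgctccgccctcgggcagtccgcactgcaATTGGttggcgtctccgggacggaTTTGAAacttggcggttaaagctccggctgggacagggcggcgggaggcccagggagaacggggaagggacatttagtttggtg
In CCNB2 the window held 4 CCAAT boxes before 1 CHR, and in CDC20 there were 2 of each.

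The share of spots well above background was lowest, at 54.1%, for sponge T labelled with Cy5 and reached 65.7% in the best channel, and no spot was saturated. Each member's probe was well above background in all 8 channels, so that every ratio below was measured on both sides. As a check of the cell line, 7 of 9 Hodgkin and B-cell markers were well above background in all 8 channels, among them TNFRSF8 (CD30) and MIR155HG, the host transcript of miR-155. MS4A1 (CD20) was well above background in no channel. Of 8 T-cell and myeloid markers, 3 (CD3D, CD3G and CD68) were so in no channel and 4 (CD3E, CD14, CSF1R and ITGAM) were in all 8. The cells were an established line, and the source of these marker signals was not tested.

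In EV cells the members were spread over a wide range of IP/T, from -1.86 for CENPM to 4.67 for WEE1 on the log2 scale. Of the 8 genes of entry into mitosis, 6 had an IP/T ratio of 2 or more and none was depleted from IP. Of the 7 genes of the centromere and kinetochore, 3 were at 0.5 or less and none at 2 or more. CENPE, among these 3, was at -0.78 (log2) with normexp, loess and Aquantile, short of 2-fold. Of 27 further kinetochore genes outside the members, 1 was at 0.5 or less and 3 at 2 or more. Differences between roles were not tested. Over all members, 11 of 42 (26.2%) had an IP/T of 2 or more in EV cells, against 18.1% of all named genes. The 11 include CDK1 and TTK, close to the threshold at 1.06 ± 0.49 and 1.05 ± 0.048 (log2). They also include BUB3, whose kept probes disagreed. With the mean of all kept probes they numbered 10, against 17.7% of all genes. A T/IP ratio of 2 or more was found for 8 of 42 (19.0%), against 18.8%. The share on the depleted side was therefore near that of all genes. The median log2 IP/T of the members was 0.055 ± 0.13, against -0.16 for all genes. With normexp, loess and Aquantile 2 members were depleted and 10 enriched, against 4.96% and 11.0% of all genes under that setting. With normexp and quantile they numbered 2 and 9, against 6.46% and 9.65%.

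In sponge cells the same 11 members had an IP/T of 2 or more, against 17.7% of all genes. On the depleted side there were 6 of 42, against 17.4%, since CDC20, KIF2C and TPX2 came to lie between the thresholds and ESPL1 crossed from -0.96 to -1.005. Across the 42 members, which are not independent replicates and were measured on 1 slide, log2 IP/T in EV and sponge cells correlated with r = 0.989, and across all 11209 genes with r = 0.981. Between the dye orientations in EV cells the correlation was r = 0.98 for the members and 0.951 for all genes. The median SD of a member over the orientations was 0.14 in EV cells, while the SD over members was 1.29 and that over all genes 1.17.

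**Figure D1:**
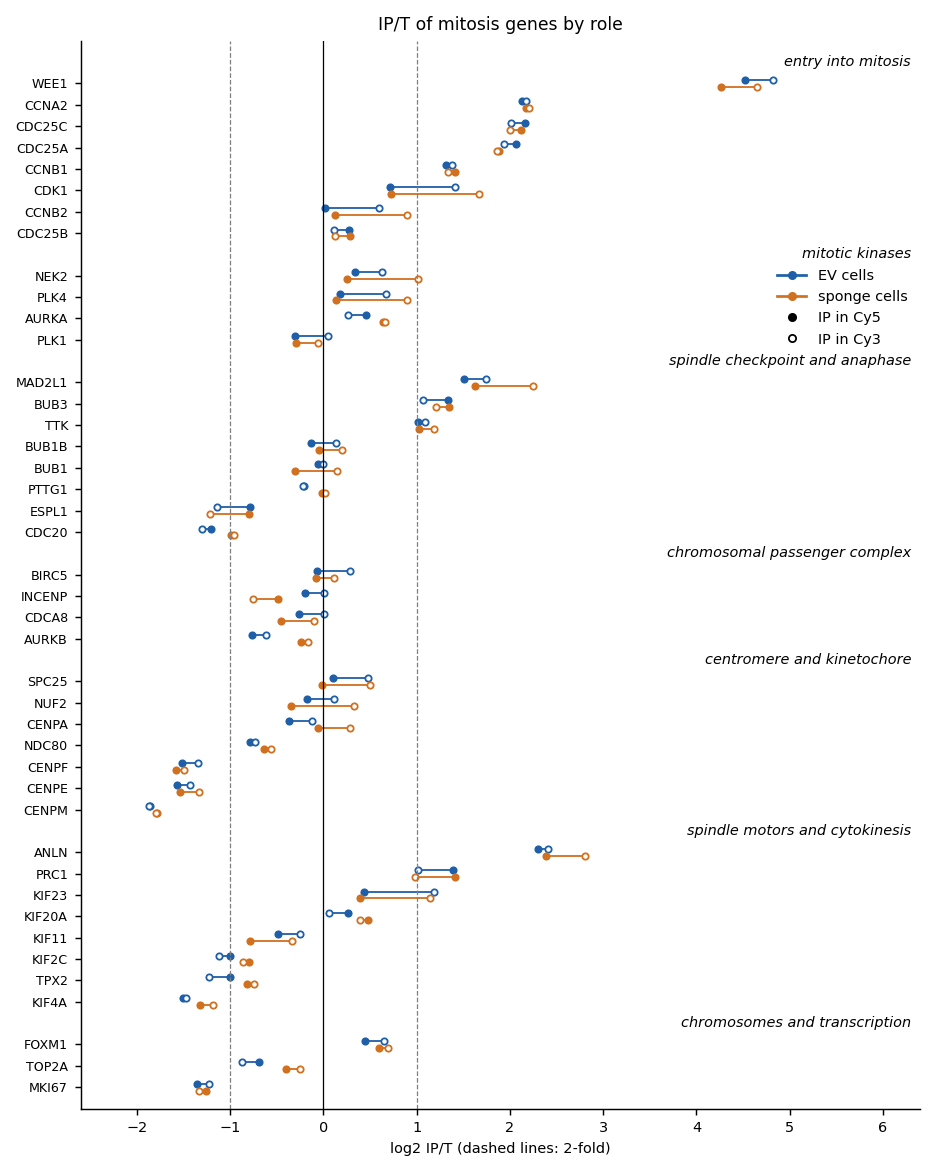
Log2 IP/T (horizontal axis) of the 42 mitosis genes, grouped by role, in EV cells (blue) and sponge cells (orange), with 1 point per dye orientation and a line joining both; dashed lines mark 2-fold. WEE1, at 4.67 in EV cells, stood apart on the enriched side, and CENPM, CENPE, KIF4A and CENPF lay lowest.

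Among the genes that control entry into mitosis, WEE1 had the highest IP/T of all members. WEE1 gave log2 signals (Cy3 and Cy5) of 8.84 and 8.64 in EV T, 13.46 and 13.36 in EV IP, 8.94 and 8.61 in sponge T and 13.26 and 13.21 in sponge IP. Its 4 IP values lay far above its 4 T values, an IP/T of 25.5-fold in EV cells (log2 4.67 ± 0.21) and 22.0-fold in sponge cells (4.46 ± 0.27). Under the alternative settings the log2 value in EV cells ran from 3.51 to 4.82, so the size of the ratio depended on the processing and its direction did not. Of the 11209 genes, 99.8% had a value at or below that of WEE1.

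CCNA2 encodes cyclin A2, which partners CDK2 and CDK1. CCNA2 gave 11.15 and 11.06 in EV T, 13.23 and 13.28 in EV IP, 11.20 and 11.14 in sponge T and 13.35 and 13.37 in sponge IP. CDC25C, a phosphatase that activates CDK1, gave 9.86 and 9.95 in EV T, 11.96 and 12.02 in EV IP, 10.15 and 10.13 in sponge T and 12.13 and 12.27 in sponge IP. In both genes IP was above T in every channel, with log2 IP/T of 2.15 ± 0.026 for CCNA2 and 2.09 ± 0.11 for CDC25C in EV cells. With normexp, loess and Aquantile CDC25C was at 1.60. CDC25A, which acts on CDK2 and CDK1, gave 11.56 and 11.64 in EV T, 13.57 and 13.62 in EV IP, 11.51 and 11.47 in sponge T and 13.33 and 13.39 in sponge IP. Its ratio of IP to T was 2.00 ± 0.087 (log2) in EV and 1.87 ± 0.014 in sponge cells. CDC25B, the remaining phosphatase of the family, was near equal in IP and T, at 0.19 ± 0.11 and 0.20 ± 0.11.

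The core mitotic kinase and its cyclins were also on the enriched side, with different precision. CCNB1 (cyclin B1) gave 13.01 and 12.99 in EV T, 14.38 and 14.33 in EV IP, 13.26 and 13.20 in sponge T and 14.54 and 14.67 in sponge IP, and its ratio of IP to T was 1.35 ± 0.046 (log2) in EV and 1.38 ± 0.052 in sponge cells. CDK1 gave 12.05 and 11.68 in EV T, 13.09 and 12.76 in EV IP, 12.16 and 11.50 in sponge T and 13.17 and 12.89 in sponge IP. Its Cy5 signals were lower than its Cy3 signals in every group, so its ratio of 1.06 ± 0.49 in EV cells rested on 0.72 in one orientation (IP in Cy5) and 1.41 in the other, on either side of the 2-fold threshold. CCNB2 (cyclin B2) had 0.31 ± 0.41 in EV cells, less than its spread. The median of the 8 genes of this role was 1.68 in EV and 1.62 in sponge cells.

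**Figure D2:**
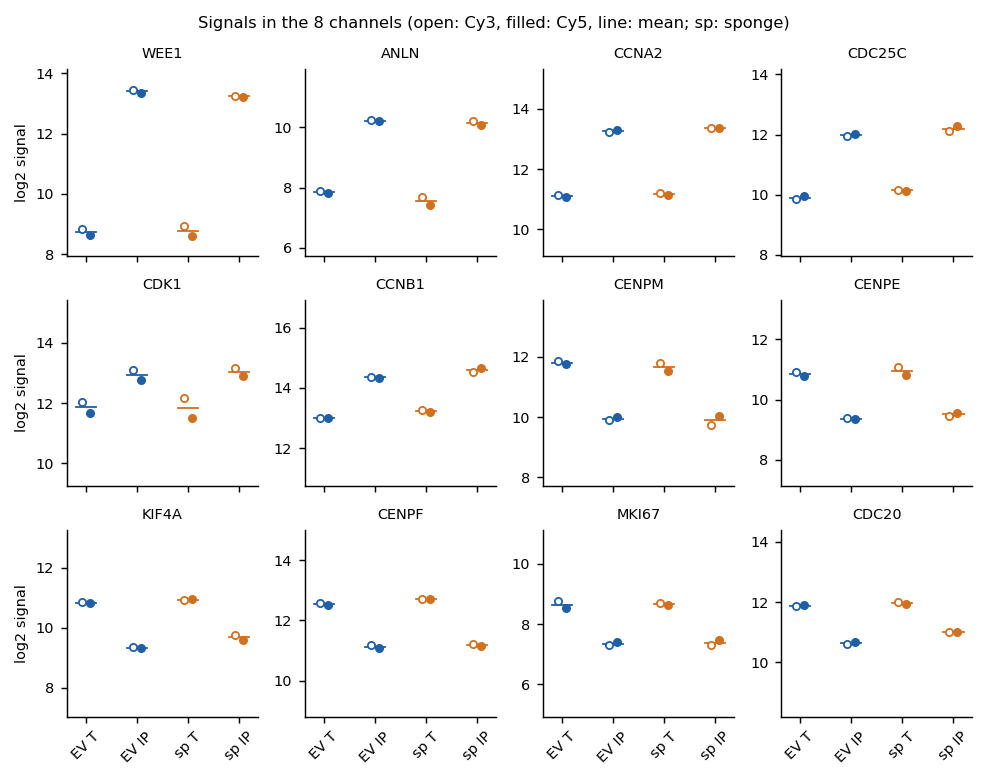
Log2 signal (vertical axis) of 12 mitosis genes in the 4 RNA samples; open points are Cy3, filled points Cy5, and the line is their mean. IP lay above T for WEE1, ANLN, CCNA2, CDC25C, CDK1 and CCNB1 and below T for CENPM, CENPE, KIF4A, CENPF, MKI67 and CDC20, in EV (blue) and sponge cells (orange) alike.

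AURKA, PLK1, PLK4 and NEK2, grouped here as mitotic kinases, did not reach 2-fold in either direction in EV or sponge cells. AURKA, the Aurora kinase of the spindle poles, had a ratio of IP to T of 0.36 ± 0.14 (log2) in EV cells. PLK4, which starts centriole duplication, had 0.43 ± 0.35, and NEK2, a centrosomal kinase, 0.48 ± 0.20. PLK1, the Polo kinase of mitotic entry and spindle assembly, gave 14.03 and 13.85 in EV T, 13.90 and 13.73 in EV IP, 14.23 and 14.23 in sponge T and 14.17 and 13.93 in sponge IP. At this brighter probe its IP and T values were close, with a ratio of IP to T of -0.13 ± 0.25 (log2) in EV and -0.18 ± 0.17 in sponge cells. At its dimmer kept probe (A_23_P118174) T exceeded IP, with -0.81 ± 0.31 in EV and -0.74 ± 0.16 in sponge cells, so PLK1 was near equality at the brighter probe only.

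The spindle checkpoint and anaphase genes fell on both sides. MAD2L1, the MAD2 protein that inhibits CDC20, gave 12.44 and 12.32 in EV T, 14.07 and 13.95 in EV IP, 12.35 and 11.98 in sponge T and 14.22 and 13.97 in sponge IP. Its IP signals lay above all T signals, with a ratio of IP to T of 1.63 ± 0.17 (log2) in EV cells. TTK, the kinase (MPS1) that starts checkpoint signalling, had 1.05 ± 0.048. CDC20, the activator that the checkpoint holds back, lay on the opposite side at -1.25 ± 0.066, an excess of T over IP of 2.39-fold. ESPL1, the separase that cleaves cohesin, had -0.96 ± 0.25, and PTTG1, the securin that inhibits it, -0.21 ± 0.0028. The checkpoint kinases BUB1 and BUB1B were near equal in IP and T, at -0.032 ± 0.035 and 0.0025 ± 0.19.

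BUB3, the WD-repeat partner of BUB1 and BUB1B, could not be given 1 value, since its kept probes disagreed. BUB3 gave 12.47 and 12.64 in EV T, 13.72 and 13.80 in EV IP, 12.53 and 12.50 in sponge T and 13.71 and 13.87 in sponge IP at its brightest probe, a ratio of IP to T of 1.20 ± 0.19 (log2) in EV cells. At a second probe (A_23_P46924) it was -0.18 ± 0.26 and at the third (A_23_P202316) -0.75 ± 0.030. The same order of probes was found in sponge cells, with 1.27 ± 0.099, 0.099 ± 0.39 and -0.65 ± 0.14. The parts of the transcript that the probes detect were not examined. The other 5 members with 2 or more kept probes (CDC25A, CENPF, KIF11, NEK2 and PLK1) had probes within 0.684 of each other. CDC25A was enriched at both of its probes, at 2.00 ± 0.087 and 2.18 ± 0.059. CENPF was below T at both, at -1.43 ± 0.12 and -0.74 ± 0.23. Of the 52 probes of the members 3 were not kept, 1 of ESPL1 that was in no channel well above background and 1 each of NDC80 and PLK4 whose dyes differed by more than 2-fold.

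**Figure D3:**
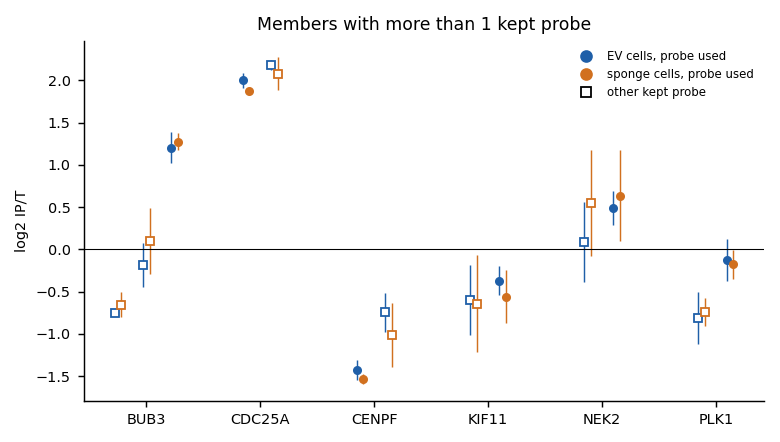
Log2 IP/T (vertical axis, ± SD over the dye orientations) at each kept probe of the 6 members with more than 1; filled circles are the probes used, open squares the others, blue EV cells and orange sponge cells. The probes of BUB3 ran from -0.75 to 1.20 in EV cells, while both probes of CDC25A lay at 1.87 or above in both populations.

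The chromosomal passenger complex, which corrects wrong attachments and later guides cytokinesis, had no member past 2-fold. In EV cells its scaffold INCENP had a log2 IP/T of -0.097 ± 0.14, its targeting subunits BIRC5 (survivin) and CDCA8 (borealin) 0.11 ± 0.25 and -0.13 ± 0.19, and its kinase AURKB -0.69 ± 0.11. AURKB lay furthest below T of these in EV cells. Its value there was -0.24 with normexp, loess and Aquantile and -0.35 with normexp and quantile. In sponge cells AURKB was at -0.20 ± 0.057 and INCENP was lower, at -0.62 ± 0.19.

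The centromere and kinetochore members were mostly lower in IP than in T. CENPM, a subunit of the constitutive centromere network, gave 11.85 and 11.76 in EV T, 9.89 and 9.99 in EV IP, 11.80 and 11.54 in sponge T and 9.75 and 10.02 in sponge IP. It had the lowest ratio of the 42, with 3.64-fold more signal in T than in IP in EV cells (log2 -1.86 ± 0.012). CENPE, a kinetochore motor, gave 10.92 and 10.80 in EV T, 9.37 and 9.35 in EV IP, 11.09 and 10.81 in sponge T and 9.47 and 9.55 in sponge IP. CENPF, a large protein of the outer kinetochore, gave 12.59 and 12.52 in EV T, 11.18 and 11.08 in EV IP, 12.73 and 12.72 in sponge T and 11.22 and 11.15 in sponge IP. All 4 T values of CENPE and of CENPF were above all IP values, with log2 IP/T of -1.50 ± 0.10 and -1.43 ± 0.12 in EV cells. With normexp, loess and Aquantile these were -0.78 and -1.09, and CENPM was at -1.18. Of the NDC80 complex, which binds microtubules, NDC80 itself had -0.76 ± 0.034, whereas its partners NUF2 (-0.029 ± 0.21) and SPC25 (0.29 ± 0.27) were within about their spread of equality. CENPA, the histone variant that marks the centromere, had -0.24 ± 0.18.

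Of the 8 spindle motor and cytokinesis genes, 3 were at an IP/T of 0.5 or less in EV cells, against 18.8% of all genes. At 2 or more there were 2, against 18.1%. In sponge cells 1 was at 0.5 or less and 2 at 2 or more, against 17.4% and 17.7% of all genes. KIF4A, a chromosome-bound kinesin, gave 10.84 and 10.81 in EV T, 9.35 and 9.34 in EV IP, 10.91 and 10.95 in sponge T and 9.77 and 9.59 in sponge IP. Its log2 IP/T in EV cells was -1.48 ± 0.025, that of the microtubule depolymerase KIF2C was -1.06 ± 0.083, and that of TPX2, which activates AURKA on the spindle, was -1.11 ± 0.16. KIF4A was at -0.76 and TPX2 at -0.84 with normexp, loess and Aquantile, both short of 2-fold. KIF11, the motor that separates the spindle poles, had -0.37 ± 0.17. ANLN (anillin), which links the contractile ring to the membrane, gave 7.90 and 7.83 in EV T, 10.23 and 10.20 in EV IP, 7.70 and 7.42 in sponge T and 10.22 and 10.08 in sponge IP. Its IP values exceeded T by 5.12-fold in EV and 6.05-fold in sponge cells, and its log2 value in EV cells ran from 1.096 to 2.41 over the alternatives. PRC1, which bundles the microtubules of the midzone, had 1.21 ± 0.27. The midzone kinesins KIF20A and KIF23 had 0.16 ± 0.14 and 0.81 ± 0.53.

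Of the genes of chromosomes and transcription, MKI67, which coats mitotic chromosomes and encodes the proliferation marker Ki-67, gave 8.75 and 8.53 in EV T, 7.30 and 7.39 in EV IP, 8.71 and 8.63 in sponge T and 7.29 and 7.46 in sponge IP. Its T signals exceeded its IP signals in both populations, with log2 IP/T of -1.29 ± 0.092 and -1.30 ± 0.056. After normexp, loess and Aquantile the value in EV cells was -0.30. TOP2A, the topoisomerase that untangles sister chromatids, had -0.78 ± 0.13, and FOXM1, a transcription factor of G2 and M genes, 0.55 ± 0.14.

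Between sponge and EV cells the members differed little in total RNA, and more of them were higher than lower in sponge cells. In T, 26 of 42 (61.9%) were higher in sponge cells in both dyes, against 29.4% of all genes. 9 (21.4%) were lower in both dyes, against 31.8%, and in 7 the dyes differed in sign, against 4349 of the 11209 genes. The members were also brighter, with a median log2 signal of 11.90, against 10.47 for all genes. How far this bears on the shares with the same sign in both dyes, in T and in IP, was not tested. The median log2 change of the members was 0.081 ± 0.047, against -0.010 for all genes. No member changed by 1.5-fold or more, a size reached by 1.97% of all genes. With normexp, loess and Aquantile 26 members were higher and 4 lower, and over all genes the shares were then 33.4% higher and 23.1% lower. The T sample of sponge cells in Cy5 was the channel with the lowest detection, and its part in these changes was not tested. The median change of the members was 0.11 in Cy3 and 0.047 in Cy5, against 0.0093 and -0.029 for all genes. Across the 42 members the changes in Cy3 and Cy5 correlated with r = 0.55, against 0.363 across all genes.

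INCENP had the highest change in T. INCENP gave log2 signals of 9.75 and 9.63 in EV T, 9.63 and 9.56 in EV IP, 10.04 and 10.26 in sponge T and 9.50 and 9.55 in sponge IP. Both T values of sponge cells lay above those of EV cells, a log2 change of 0.46 ± 0.24 (1.37-fold), with 0.29 in Cy3 and 0.63 in Cy5. PLK1 followed with 0.29 ± 0.13, CDC25C with 0.24 ± 0.081 and CCNB1 with 0.23 ± 0.026. At the other end, ANLN had -0.31 ± 0.15, MAD2L1 -0.22 ± 0.17 and CENPM -0.13 ± 0.13. The value of ANLN was 0.025 with normexp, loess and Aquantile, so its direction depended on the processing. CDK1 (-0.034 ± 0.21) and WEE1 (0.039 ± 0.093) had dyes of opposite sign, and MKI67 did too (0.030 ± 0.096).

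In IP the excess of higher over lower members was larger than in T. 32 of 42 (76.2%) were higher in sponge IP than in EV IP in both dyes, against 37.7% of all genes. 4 (9.52%) were lower in both dyes, against 36.4%. The median log2 change was 0.13 ± 0.0099, against 0.0033 for all genes, and under the 14 alternative settings it ran from 0.12 to 0.14. The 32 were found in every role, with 6 of 8 genes of entry into mitosis, 3 of 4 mitotic kinases, 7 of 8 checkpoint and anaphase genes, 3 of 4 of the passenger complex, 5 of 7 of the kinetochore, 6 of 8 motors and cytokinesis genes and 2 of 3 of the last role. None reached 1.5-fold, against 1.01% of all genes. The 2 dyes correlated with r = 0.794 across the members and 0.579 across all genes.

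KIF20A, which carries the passenger complex to the midzone, gave 9.72 and 9.87 in EV T, 9.94 and 9.98 in EV IP, 9.89 and 10.02 in sponge T and 10.41 and 10.37 in sponge IP. TPX2 gave 12.74 and 12.72 in EV T, 11.49 and 11.74 in EV IP, 12.84 and 12.78 in sponge T and 12.04 and 12.02 in sponge IP. CENPA gave 11.58 and 11.43 in EV T, 11.31 and 11.20 in EV IP, 11.68 and 11.42 in sponge T and 11.70 and 11.63 in sponge IP. In each of these 3 genes both sponge IP values were above both EV IP values, and the log2 changes in IP were 0.43 ± 0.066, 0.41 ± 0.19 and 0.41 ± 0.023, the highest among the members. KIF2C (0.39 ± 0.0085), AURKB (0.37 ± 0.083) and CDC20 (0.37 ± 0.041) were close behind. The 4 members lower in IP in both dyes were CDC25A (-0.24 ± 0.0056), WEE1 (-0.17 ± 0.032), INCENP (-0.069 ± 0.091) and ANLN (-0.066 ± 0.076). For CDC25A both sponge IP values were below both EV IP values, and its second probe gave -0.15 ± 0.021. CDC25A, WEE1 and ANLN were among the 11 members enriched in IP, while INCENP was not. MKI67 (0.027 ± 0.051) and BUB3 (0.028 ± 0.057) had dyes of opposite sign.

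**Figure D4:**
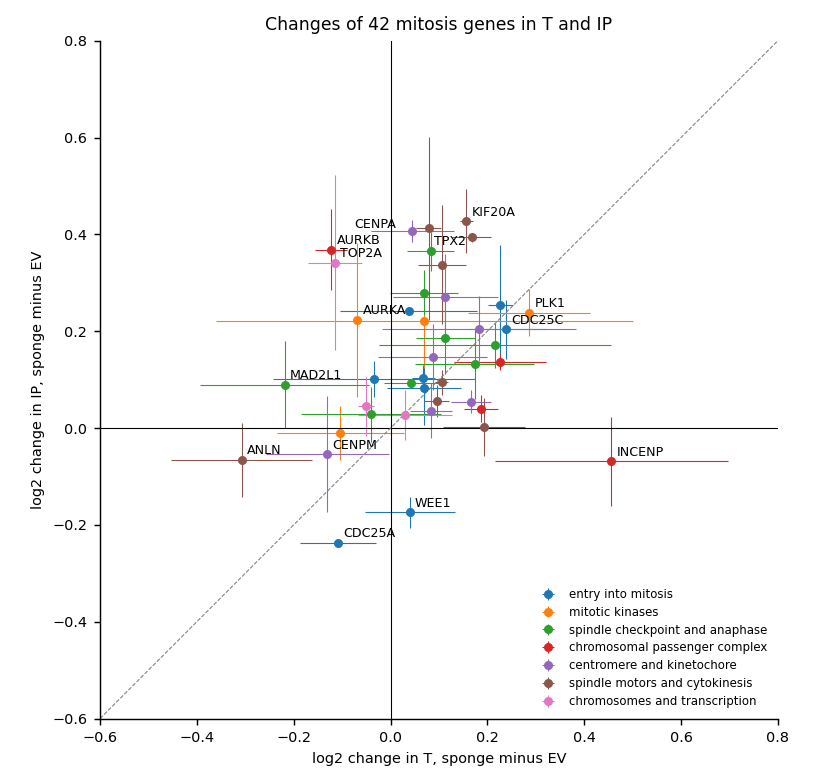
Log2 change from EV to sponge cells in T (horizontal axis) and in IP (vertical axis) of the 42 members, coloured by role, with the SD over the dyes as bars and equal change on the dashed line. Most points lie above 0 in IP, CDC25A and WEE1 lie lowest, and INCENP lies far to the right with an IP change of -0.069.

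Set against each other, 23 members were higher in sponge cells in both fractions and both dyes, against 16.7% of all genes, and 2 (CDC25A and ANLN) were lower in both, against 15.8%. 5 members were lower in T and higher in IP, namely AURKA, AURKB, MAD2L1, TOP2A and FOXM1, a pattern that 8.73% of all genes had. INCENP was the single member with the converse, found in 5.7% of all genes.

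IP/T changed by 1.5-fold or more for no member, against 1.98% of all genes. It was higher in sponge cells in both orientations for 23 of 42, against 33.6%, and lower for 10, against 29.8%. The median change was 0.064 ± 0.050, against 0.0089 for all genes. Since log2 IP/T is built from the same signals as the changes in T and IP, it holds no separate evidence. The largest differences concerned INCENP and AURKB, which are partners in 1 complex, and TOP2A. INCENP moved from -0.097 ± 0.14 to -0.62 ± 0.19, a change of -0.53 ± 0.33. AURKB gave 10.16 and 9.99 in EV T, 9.38 and 9.39 in EV IP, 10.06 and 9.85 in sponge T and 9.69 and 9.82 in sponge IP. Its T signals were slightly lower and its IP signals higher in sponge cells, and IP/T went from -0.69 ± 0.11 to -0.20 ± 0.057, a change of 0.49 ± 0.050 that ran from 0.32 to 0.57 over the alternatives. Its ratio in sponge cells was 0.077 with normexp, loess and Aquantile. TOP2A gave 10.82 and 10.89 in EV T, 10.02 and 10.13 in EV IP, 10.74 and 10.73 in sponge T and 10.49 and 10.34 in sponge IP, and its IP/T changed by 0.46 ± 0.24. WEE1 had a lower IP/T in sponge cells by a log2 change of -0.21 ± 0.061, which ran from -0.32 to -0.13. CDK1 (0.13 ± 0.17), CCNB1 (0.027 ± 0.098), PLK1 (-0.048 ± 0.078) and MKI67 (-0.0029 ± 0.15) changed by no more than about their spread.

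Other genes of mitosis, given by 5 further lists with 115 genes of which 105 were kept, were also more often higher than lower in sponge cells. In IP 64 of 105 (61.0%) were higher in both dyes and 16 (15.2%) lower, with a median of 0.095. In T 45 (42.9%) were higher and 22 (21.0%) lower, with a median of 0.047. By list, the genes higher and lower in IP numbered 11 and 3 of 18 for condensin and cohesin, 7 and 2 of 14 for the anaphase-promoting complex, 15 and 4 of 27 for further kinetochore genes, 20 and 3 of 27 for further spindle genes, and 11 and 4 of 19 for further kinases and regulators. In EV cells 15 of the 105 (14.3%) had an IP/T of 2 or more and 11 (10.48%) a T/IP of 2 or more, both below the shares over all genes (18.1% and 18.8%) and, on the enriched side, below that of the members. FAM83D, a spindle protein, was highest among them at 4.66, close to WEE1. The median log2 IP/T of the further kinetochore genes was 0.056, against -0.76 for the 7 kinetochore members.

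The cell-cycle lists most like the members differed from each other. Of 53 DNA replication genes of S phase, 33 (62.3%) were higher and 11 (20.8%) lower in IP in both dyes. In T 20 (37.7%) were higher and 13 (24.5%) lower. In IP these genes leaned the same way as the members, against 37.7% higher and 36.4% lower of all genes. Of 27 kept genes of G1 cyclins, kinases and the RB pathway, 9 (33.3%) were higher and 13 (48.1%) lower in IP. In T they numbered 6 and 10. The median changes in IP were 0.098 and -0.024, beside 0.13 for the members. These are descriptions of 4 RNA samples, and differences between the lists were not tested.

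**Figure D5:**
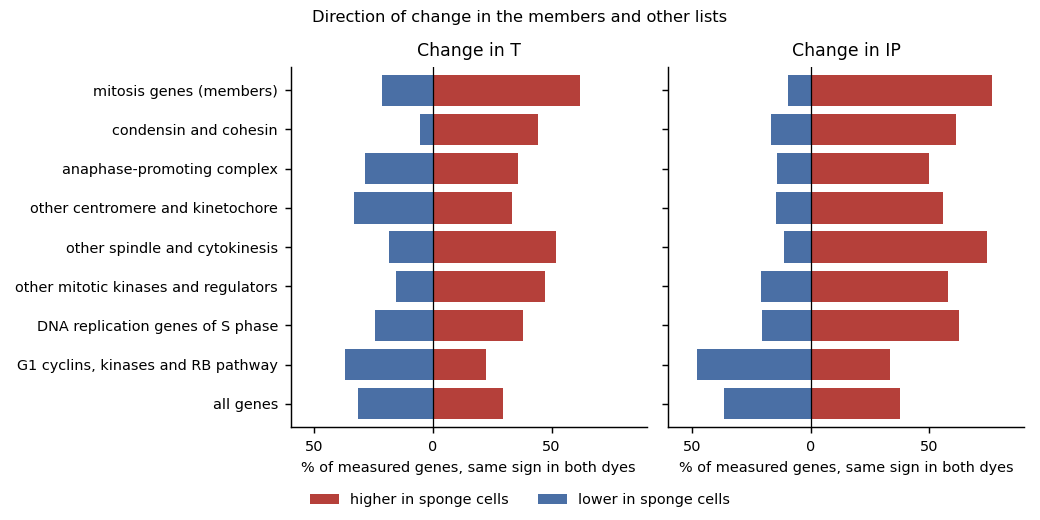
Percentage of measured genes higher (red, to the right) or lower (blue, to the left) in sponge than in EV cells with the same sign in both dyes, in T and in IP, for the 42 members, 5 other mitosis lists, 2 other cell-cycle lists and all 11209 genes. In IP the members had 76.2% higher and 9.52% lower, against 37.7% and 36.4% of all genes.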

How the data were processed

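RNA of 4 samples was labelled with Cy3 and Cy5 and hybridised to 44k two-colour Agilent arrays, IP against T of one population. The authors extracted the scans with Agilent Feature Extraction (10.5.1.1 per the labels, 10.7.3.1 per the file headers), and the deposited intensity of each spot is background-subtracted and dye-corrected. The 8 deposited files were 4 distinct arrays, each given under both of its samples, and only the dye channel of the named sample was read from each. The authors' series table holds log2 quantile-normalised values of 22282 probes, which differed from those used here by a median of at most 0.0030 in any channel. It served as an alternative.

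Control spots and outlier spots were left out, the spots of a probe averaged and the 8 channels quantile normalised as log2 values (limma 3.58.1, R 4.3.3; Python 3.11.15). Following the study's methods, probes were filtered on detection, here well above background in at least 4 of 8 channels, and on dyes within 2-fold in each RNA sample. This left 22478 of 41000 probes. RefSeq accessions named 69.5% of them, for 11209 genes (GRCh38.p14, names only). Genes with several kept probes are represented by the brightest on average. After this normalisation IP/T is relative to the other transcripts on the array and not an absolute recovery.

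The 4 groups hold 1 sample each, so no test was made. Members and lists were chosen with earlier results of these data known. All members are given by role; signals in all 8 channels are given for the 4 highest and 4 lowest by IP/T in EV cells, the 3 highest and 3 lowest by change in T and in IP among those with the same sign in both dyes, the 3 largest changes in IP/T, members whose probes differ by 1 or more in log2, and CDK1, CCNB1, PLK1, AURKB, MKI67 and WEE1. CDC20 was added to the plot of signals by channel after its values were seen. In other lists at most 2 genes at either end are named. The 14 alternatives concerned background correction and normalisation (normexp with an offset of 50, 75th percentile scaling, the authors' values), filters, dyes, and the choice of probe. The scripts were tested on simulated data. The arrays share 1 slide, and their number limits the precision.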

Additional observations from a re-analysis of the deposited data

Results flagged for a closer look

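For 6 members the change from EV to sponge cells ran in opposite directions in T and in IP, in both dyes of each. Of these, 5 were lower in T and higher in IP, against 8.73% of all genes. INCENP alone had the converse, against 5.7% of all genes. Opposite signs are therefore not particular to the members. The change in IP minus the change in T, on the log2 scale, was 0.49 for AURKB, 0.46 for TOP2A, 0.31 for MAD2L1, 0.29 for AURKA and 0.096 for FOXM1, which were all lower in T and higher in IP. It was -0.53 for INCENP, which was higher in T and lower in IP, although its IP change in Cy5 was only -0.0044. The FOXM1 change in T was -0.051 ± 0.017 and in IP 0.045 ± 0.061. These differences were not tested, since each group holds 1 RNA sample.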

How the results depend on the processing

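No paired analysis was possible because each group holds 1 RNA sample. Over the 14 alternatives, 145 of 152 values of the counts and medians of the members stayed within 1.5 times the count or within the SD over the dyes. The others were as follows. The members with IP/T of 0.5 or less in EV cells numbered 2, against 8, with normexp, loess and Aquantile and 2 with normexp and quantile, and the members lower in T numbered 4, against 9, with the former. The median change in IP was 0.12 with normexp and quantile, 0.12 with the Cy5 labels and 0.12 with the arrays that have IP in Cy5. The median change in IP/T was 0.13 with the Cy5 labels. The alternatives were computed singly for the members whose signals are given in all channels. Of their values, those with the same sign in both dyes or orientations and larger than their SD changed sign in 14 cases, as follows. With normexp, loess and Aquantile the change of ANLN was 0.025 in T and -0.27 in IP/T, AURKB in sponge cells had a log2 IP/T of 0.077, CENPF in IP was -0.0020 and KIF4A in T -0.066. With normexp and quantile the change in IP/T of ANLN was -0.011 and of CDC25C 0.076, and KIF4A in T was -0.059. With the Cy3 labels the change in IP/T was -0.069 for CENPE and -0.097 for CENPM, and with the Cy5 labels -0.0011 for CCNA2 and 0.065 for CDC25C. CENPF in IP was -0.011 with the mean of all kept probes and -0.076 at the kept probe of highest IP/T. In 6 cases a value without that agreement changed sign by more than its SD. With normexp, loess and Aquantile these were CENPM in IP (0.13) and the log2 IP/T of INCENP in EV cells (0.099), and with the Cy3 labels the change in IP/T of CDK1 (-0.039), CCNB1 (-0.080), BUB3 (-0.074) and PLK1 (0.075). In another 32 cases the sign changed within the SD. The cause of these changes was not tested. Counts by the sign in both dyes could not be formed from 1 dye or 1 orientation.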
